A study of Saccharomyces cerevisiae with 4 samples.

Results

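Transcripts of 7 genes of inositol pyrophosphate metabolism were examined in Saccharomyces cerevisiae: SIW14, OCA1, OCA2, OCA4 and OCA6 of one phosphatase family and the kinase genes KCS1 and VIP1. They were chosen by name, with earlier results of the same arrays known, in which SIW14 stood among the most different genes, so their differences between the strains are given as a description and carry no test. All 7 were found among the 5656 genes that the platform annotation pairs with a probe set of their own, on 12 probe sets, and all 7 were among the 4576 genes kept after a filter on dim probe sets. The samples were 2 cultures of a strain with histone H3 K4,36,79R, in which lysines 4, 36 and 79 of H3 are replaced by arginine, and 2 cultures of a wild-type strain. All were harvested at 0 h in selective galactose medium, at mid-log phase. In the time course they belong to, wild-type H3 is made in galactose and is shut off only by the later move to glucose. The mutant cultures at 0 h therefore still had the means to make wild-type H3 beside the mutant form. The labels give no other allele, marker or plasmid of either strain. The series asks which genes depend on the H3 mutant, and the 0 h samples show which transcripts differed before the move to glucose.

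Inositol pyrophosphates are small, highly phosphorylated signalling molecules that carry diphosphate groups on an inositol ring. In yeast Kcs1 and Vip1 add these groups at different places on the ring, and Siw14 removes the group that Kcs1 adds. Their levels report on cellular phosphate and energy: they bind the SPX domains of proteins that import phosphate or store it as polyphosphate, and strains that lack Siw14 or Kcs1 are altered in stress responses. OCA stands for oxidant-induced cell-cycle arrest, and SIW14 itself carries OCA3 as a synonym in the RefSeq gene table. The Oca proteins are related in sequence to Siw14, and the substrates of several of them are not settled.

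Both strains read the genes of galactose use strongly, with signals from 633 for GAL10 in a mutant culture to 2414 for GAL2 in a wild-type culture, while the regulator GAL3 read 14.3 to 20.5. MFA1 and MFA2 of mating type a read 344 to 921, and STE3 and the alpha-factor genes MF(ALPHA)1 and MF(ALPHA)2 read 4.95 to 19.8 in all 4 cultures. Median signals over all probe sets were 38.6 and 42.9 on the mutant arrays and 47.6 and 39.3 on the wild-type arrays. The SD of log2 differences between replicates over the tested genes was 0.27 in the mutant and 0.43 in the wild type. In the bulk RNA of a culture, a change in every cell and one in a part of the cells cannot be told apart.

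SIW14 (YNL032W, chromosome XIV), the phosphatase gene, was the member that differed most. Its deposited signal was 311 and 274 in the mutant cultures, against 131 and 142 in the wild-type cultures. Both mutant arrays lay well above both wild-type arrays, and the gap between the groups was wider than the gap between replicates of either group. On the log2(signal + 2) scale, after each array had been centred on its median, SIW14 stood at 8.25 ± 0.22 in the mutant and 7.06 ± 0.13 in the wild type (SD, n = 2 each). The difference of 1.19 (SE 0.17) corresponds to 2.28-fold, and ranked 11 from the highest among the 4576 tested genes. At least 2-fold higher in the mutant were 20 of the tested genes, or 0.437%, and of the 7 examined genes SIW14 was 1 of them. With any one array left out, the difference of SIW14 ranged from 1.03 to 1.35.

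The OCA genes did not share a difference of that size. OCA2 (YNL056W, chromosome XIV) had deposited signals of 139 and 148 in the mutant cultures, against 115 and 117 in the wild-type cultures. The groups did not overlap, and the log2 difference was 0.41 (SE 0.16, 1.33-fold), from 7.24 ± 0.03 in the mutant and 6.83 ± 0.06 in the wild type (SD, n = 2 each). It ranged from 0.36 to 0.45 with any one array left out.

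OCA1 (YNL099C, chromosome XIV) is needed in yeast for arrest of the cell cycle after exposure to a lipid peroxide. Its deposited signals were 128 and 134 in the mutant cultures, against 129 and 120 in the wild-type cultures, and the groups overlapped on that scale. After centring they did not overlap, with 7.11 ± 0.05 in the mutant and 6.93 ± 0.02 in the wild type (SD, n = 2 each), a difference of 0.18 (SE 0.16, 1.13-fold). The separation of OCA1 thus rests on the scaling of the arrays, and without centring its difference was 0.069.

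OCA4 (YCR095C, chromosome III) and OCA6 (YDR067C, chromosome IV) were read close to the dimmest level that was tested, a mean signal of 24.95. OCA4 had signals of 25.7 and 17.6 in the mutant cultures, against 39.3 and 23.3 in the wild-type cultures. It was the one member with a negative difference, -0.37 (SE 0.31), and the replicates of each strain lay 0.63 and 0.64 apart, further than the strains did. OCA6 had signals of 30.0 and 29.2 in the mutant cultures, against 39.4 and 14.0 in the wild-type cultures. Both mutant values fell between the wild-type values, which lay 1.30 apart on the log2 scale, a wider gap than for 99.2% of the tested genes. The OCA6 difference of 0.40 (SE 0.40) was 1.05 when wild-type replicate 1 was left out and -0.25 when wild-type replicate 2 was, so no direction can be given for it. That of OCA4 ran from -0.69 to -0.05 with one array left out.

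**Figure D1:**
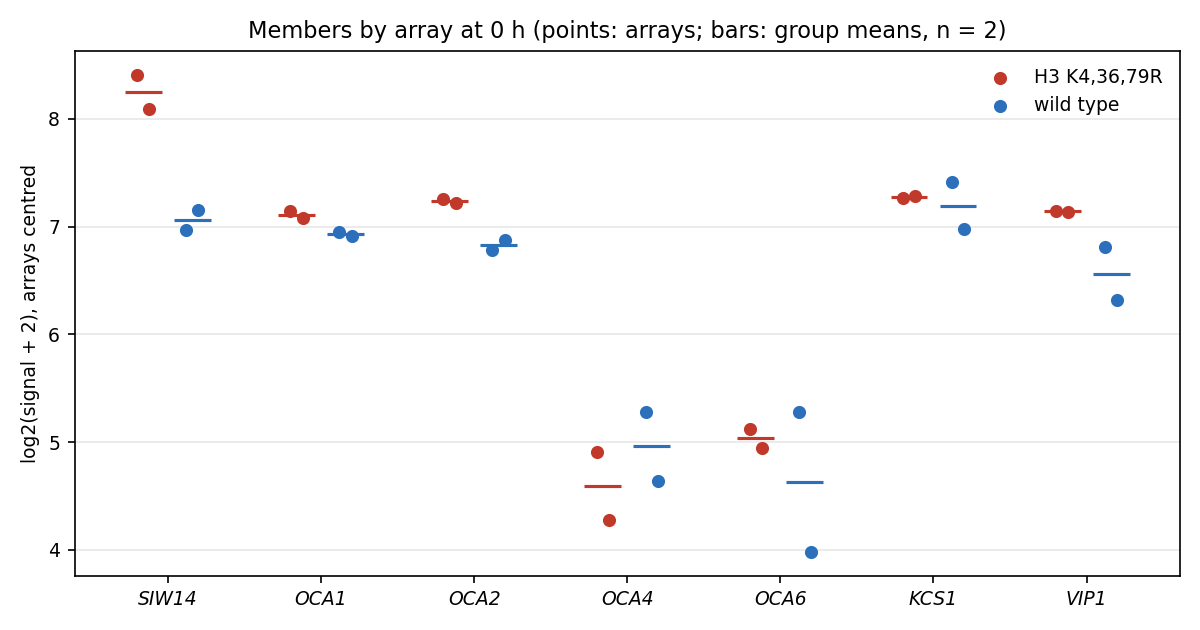
Log2(signal + 2) of the 7 genes on each array (vertical axis, arrays centred on their medians), with H3 K4,36,79R cultures in red, wild-type cultures in blue, a point per array and a bar at each group mean (n = 2 each). SIW14 stands apart between the strains, with means of 8.25 in the mutant and 7.06 in the wild type, whereas the wild-type points of OCA6 lie 1.30 apart and enclose both mutant points.

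Of the kinase genes, KCS1 (YDR017C, chromosome IV) encodes the enzyme that makes the diphosphate Siw14 removes. Its deposited signals were 139.8 and 155 in the mutant cultures, against 179 and 126 in the wild-type cultures. The mutant values lay between the wild-type values, with means of 7.27 ± 0.01 in the mutant and 7.19 ± 0.30 in the wild type (SD, n = 2 each). The difference was 0.08 (SE 0.19, 1.06-fold), and it took either sign, 0.30 when wild-type replicate 1 was left out and -0.14 when wild-type replicate 2 was. Without centring it was -0.03. The SE of KCS1 leaves room for a difference in either direction, so similar levels in the strains are not shown.

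VIP1 (YLR410W, chromosome XII) encodes the other kinase, a protein with a kinase domain and a phosphatase-like domain. On its brightest probe set, 9901_at, the signals were 129 and 139.5 in the mutant cultures, against 117 and 78.6 in the wild-type cultures. Both mutant arrays were higher than both wild-type arrays, and the wild-type replicates lay 0.49 apart while the mutant replicates lay 0.02 apart. The log2 difference was 0.58 (SE 0.20, 1.49-fold), and it was 0.82 when wild-type replicate 1 was left out and 0.33 when wild-type replicate 2 was.

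VIP1 was the one member with more than 1 probe set, and its 6 probe sets gave separate readings of the same cultures. Probe set 2848_s_at had signals of 74.5 and 77.4 in the mutant cultures, against 59.8 and 60.2 in the wild-type cultures. There the replicates of each strain were close and the difference was 0.44, with SDs of 0.06 in the mutant and 0.06 in the wild type. The other 4 probe sets lay below the filter on dim probe sets. Their differences were 0.58 on 2844_at, 0.28 on 2845_g_at, 0.77 on 2846_s_at and 0.17 on 2847_s_at. All 6 differences were above 0, and on 5 probe sets both mutant arrays lay above both wild-type arrays. Of all tested genes 21.0% did so, a share that does not cover the 4 dim probe sets. On 2845_g_at the groups separated only after centring, with deposited signals of 6.46 and 7.10 in the mutant cultures, against 6.5 and 5.1 in the wild-type cultures. The dimmest of the 6 probe sets, 2844_at, read 4.45 and 2.11 in the mutant cultures, against 1.6 and 1.8 in the wild-type cultures, a level at which the added 2 shrinks any fold. The 6 probe sets read the same 4 RNA samples and are no replicates of the comparison.

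**Figure D2:**
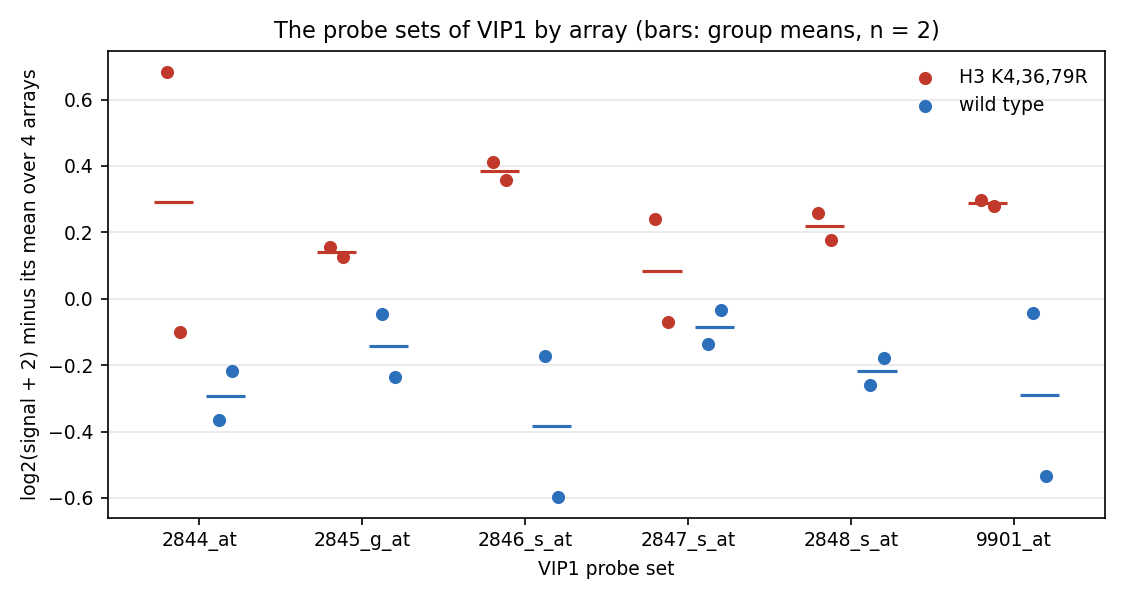
The 6 probe sets of VIP1, each drawn as log2(signal + 2) minus its own mean over the 4 arrays, with H3 K4,36,79R cultures in red, wild-type cultures in blue and bars at group means (n = 2 each). The mutant mean is above the wild-type mean on all 6, by 0.17 on 2847_s_at to 0.77 on 2846_s_at.

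Among the 7 genes 6 differences were positive, with a median of 0.40, against a median of -0.01 and 48.4% positive differences over all tested genes. Both mutant arrays lay above both wild-type arrays for 4 members (SIW14, OCA1, OCA2 and VIP1) and below them for 0, where 21.0% of all tested genes lay above and 18.5% below. In limma 0 of the 7 passed an adjusted p of 0.05, a threshold that 0.0437% of all tested genes passed. At an unadjusted p under 0.05 there were 3 members (SIW14, VIP1 and OCA2), where 8.52% of all tested genes reached it. Since the genes were chosen with this contrast known, nothing is read from these counts.

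**Figure D3:**
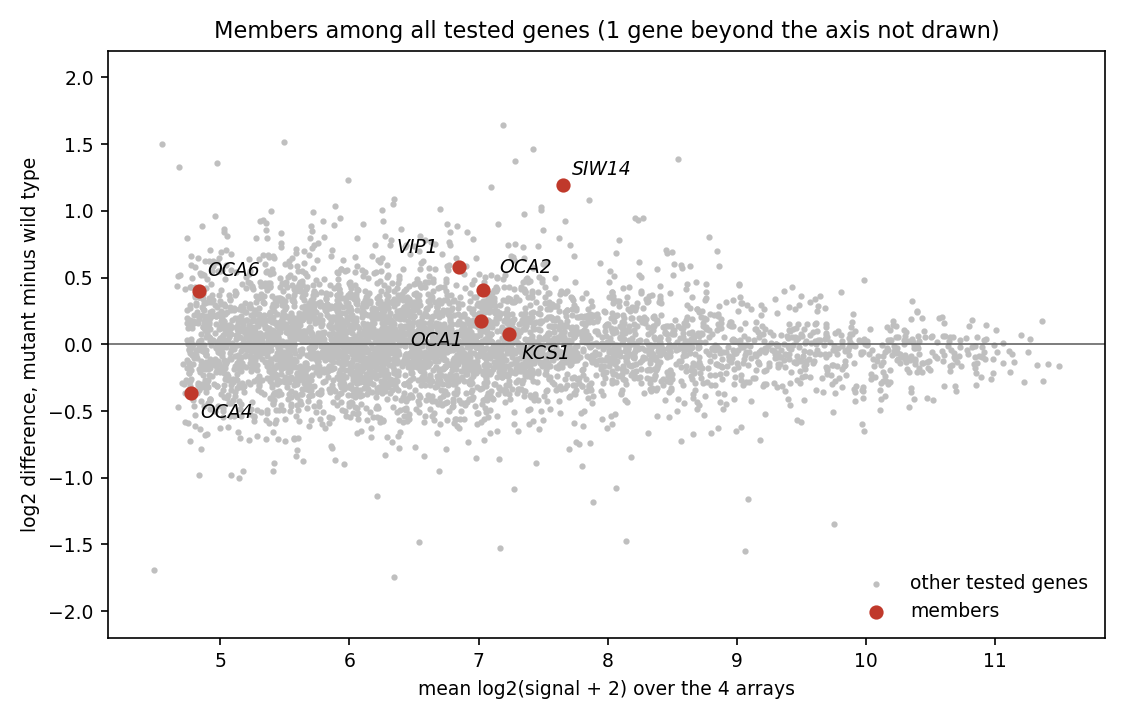
Log2 difference, mutant minus wild type (vertical axis), against the mean log2(signal + 2) over the 4 arrays (horizontal axis) for the 4576 tested genes in grey, with the 7 genes in red and 1 gene beyond the axis not drawn. SIW14 at 1.19 lies at the upper edge of the cloud, and OCA1 and KCS1 lie within its centre at 0.18 and 0.08.

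The profiles of the members over the 4 arrays were compared as the Euclidean distance between log2 values, each gene centred on its own mean. OCA1 and OCA2 were the closest pair, at 0.25, and SIW14 and OCA4 the most distant, at 1.68. SIW14 was 0.80 from VIP1 and 1.21 from KCS1, the kinase gene whose product it opposes. Over all tested genes, the 5 profiles most like that of SIW14 were those of GTT2, DIP5, GPX1, YAT2 and GDH3, at distances from 0.21 to 0.36. GTT2 encodes a glutathione transferase and GPX1 a glutathione peroxidase, DIP5 an amino acid permease, YAT2 a carnitine acetyltransferase and GDH3 a glutamate dehydrogenase. GTT2, the nearest, had signals of 71.6 and 68.0 in the mutant cultures, against 34.9 and 38.8 in the wild-type cultures, and a difference of 0.99 (SE 0.21). GPX1 had signals of 103 and 101 in the mutant cultures, against 58.0 and 49.7 in the wild-type cultures, and a difference of 1.01 (SE 0.19).

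The profile of KCS1 was most like those of GZF3, MSS116 and MRPL15, at distances of 0.03 each. GZF3 encodes a GATA-type repressor of nitrogen genes, MSS116 a mitochondrial RNA helicase and MRPL15 a mitochondrial ribosomal protein. VIP1 was closest to PMA2, YET1 and PCD1, at distances from 0.04 to 0.06, of which PMA2 encodes a minor plasma membrane proton pump and PCD1 a peroxisomal pyrophosphatase. All 6 of these shared the high first and low second wild-type array. With 4 arrays from 2 strains, such likeness is a description of these cultures.

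Other genes of the pathway were taken as 7 lists holding 41 genes, of which 38 were tested. Over all lists 0 genes passed limma's adjusted p of 0.05 in either direction, where 0.0437% of all tested genes passed. An unadjusted p under 0.05 was reached by 4 of the 38, where 8.52% of all tested genes reached it. The lists were chosen with earlier results known, so nothing is read from these counts or from those of single lists below. The list genes split into 20 positive and 18 negative differences, with a median of 0.06 against -0.01 over all tested genes.

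Upstream of the pyrophosphates, the phospholipase C gene PLC1 starts the route by releasing inositol trisphosphate, and the kinases Arg82 and Ipk1 complete inositol hexakisphosphate. PLC1 read 45.1 and 47.0 in the mutant cultures, against 51.5 and 45.1 in the wild-type cultures, and its difference was 0.04 (SE 0.20). ARG82 and IPK1 lay below the filter. ARG82 read 18.3 and 22.0 in the mutant cultures, against 29.3 and 25.7 in the wild-type cultures, and IPK1 read 10.2 and 14.0 in the mutant, against 9.8 and 9.5 in the wild type.

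Among the other hydrolases, DDP1 encodes a Nudix enzyme that also acts on inositol pyrophosphates, and PPX1, PPN1 and PPN2 encode polyphosphatases. None of the 4 passed the test in limma, and 0 had an unadjusted p under 0.05. DDP1 was at -0.11 (SE 0.18), PPX1 at -0.39 (SE 0.23), PPN2 at -0.39 (SE 0.24) and PPN1 at 0.33 (SE 0.15). With wild-type replicate 1 left out PPX1 was at -0.65, PPN2 at -0.74 and DDP1 at -0.03, and with wild-type replicate 2 left out they were at -0.14, -0.05 and -0.20. PPX1 was also at -0.23 with mutant replicate 1 left out, while PPN1 ranged from 0.28 to 0.38. OCA5, an OCA gene outside the phosphatase family, read 109 and 164 in the mutant cultures, against 144 and 152 in the wild-type cultures, a difference of -0.03 (SE 0.20).

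In the supply of myo-inositol 0 of 6 genes passed the test, and 1 had an unadjusted p under 0.05. INO1, the inositol-3-phosphate synthase gene of new inositol synthesis, read 136 and 164 in the mutant cultures, against 395 and 339.8 in the wild-type cultures. Its difference was -1.18 (SE 0.15), about the size of that of SIW14 with the opposite sign, and ranged from -1.25 to -1.11 with one array left out. The groups of INO1 did not overlap, as for 39.4% of all tested genes. The inositol transporter genes ITR1 (-0.14) and ITR2 (0.16), the monophosphatase genes INM1 (-0.32) and INM2 (0.20) and the phosphatidylinositol synthase gene PIS1 (-0.01) were read with SEs of 0.18 to 0.35, and INM2 alone among them differed by more than its SE. INM1, ITR2 and PIS1 took either sign when one array or another was left out.

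SPX-domain proteins are the receptors of inositol pyrophosphates, and the VTC complex is the vacuolar polyphosphate polymerase they control. Of 11 genes 0 passed the test and 2 had an unadjusted p under 0.05, with 5 positive and 6 negative differences and a median of -0.01. The highest over all 4 arrays were GDE1, a glycerophosphodiesterase gene, at 0.43 (SE 0.18), and the low-affinity phosphate transporter gene PHO90 at 0.37 (SE 0.15). With wild-type replicate 1 left out VTC5 was highest at 0.58, and PHO90 at 0.41 was above GDE1 at 0.34. With mutant replicate 2 left out PHO90 was highest at 0.44, against 0.33 for GDE1. PHO90 read 354 and 354 in the mutant cultures, against 309 and 279.6 in the wild-type cultures. The lowest over all 4 arrays was PHO87, a paralogue of PHO90, at -0.43 (SE 0.20), with 76.9 and 88.4 in the mutant cultures, against 104 and 138 in the wild-type cultures. PHO87 was at -0.66 with wild-type replicate 1 left out and at -0.19 with wild-type replicate 2 left out, where VTC2 was lower at -0.22. With mutant replicate 2 left out VTC2 was lower too, at -0.50 against -0.46 for PHO87. VTC1 (-0.03), VTC2 (-0.25), VTC3 (0.18), VTC4 (-0.01) and VTC5 (0.37) showed no common direction, and VTC5 was at -0.07 when all its probe sets were averaged. VTC1, VTC2, VTC3 and VTC4 each took either sign when one array or another was left out.

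Of the other tyrosine and dual-specificity phosphatases, 10 of 11 genes were tested, 0 passed and 1 had an unadjusted p under 0.05. PTP2, whose product switches off the osmotic stress kinase Hog1, had the highest difference over all 4 arrays, 0.86 (SE 0.38). It read 97.6 and 119.6 in the mutant cultures, against 103 and 38.5 in the wild-type cultures, so its difference hangs on the second wild-type array and was 0.22 when that array was left out and 1.51 when wild-type replicate 1 was. SDP1, a stress-inducible phosphatase gene of the cell wall kinase Slt2, was at 0.56 (SE 0.23), with 41.8 and 54.2 in the mutant cultures, against 30.4 and 38.3 in the wild-type cultures, and was at 0.37 with wild-type replicate 1 left out. SDP1 stood above PTP2 with wild-type replicate 2 left out, at 0.76. It also did so with all probe sets averaged, at 0.56 against 0.49 for PTP2. YVH1 was lowest at -0.51 (SE 0.34), with 51.0 and 60.9 in the mutant cultures, against 59.5 and 125 in the wild-type cultures. Its sign and its place rest on wild-type replicate 2: without that array YVH1 was at 0.051 and PTP3 was lowest at -0.49, and with wild-type replicate 1 left out YVH1 was at -1.06. TEP1 lay below the filter.

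SIW14 takes its name from a synthetic interaction with WHI2, a gene that acts with PSR1 and PSR2 in the general stress response through Msn2 and Msn4. All 5 of these genes had positive differences, where 48.4% of all tested genes did. Of the 5, 0 passed the test and 0 had an unadjusted p under 0.05. The values were 0.43 (SE 0.28) for PSR1, 0.28 (SE 0.23) for MSN4, 0.16 (SE 0.17) for PSR2, 0.13 (SE 0.16) for WHI2 and 0.10 (SE 0.17) for MSN2. With wild-type replicate 2 left out PSR1 was at 0.0014 and MSN4 at -0.03, and with wild-type replicate 1 left out they were at 0.86 and 0.58. MSN2 was at -0.0055 with mutant replicate 1 left out and at -0.0026 without centring.

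**Figure D4:**
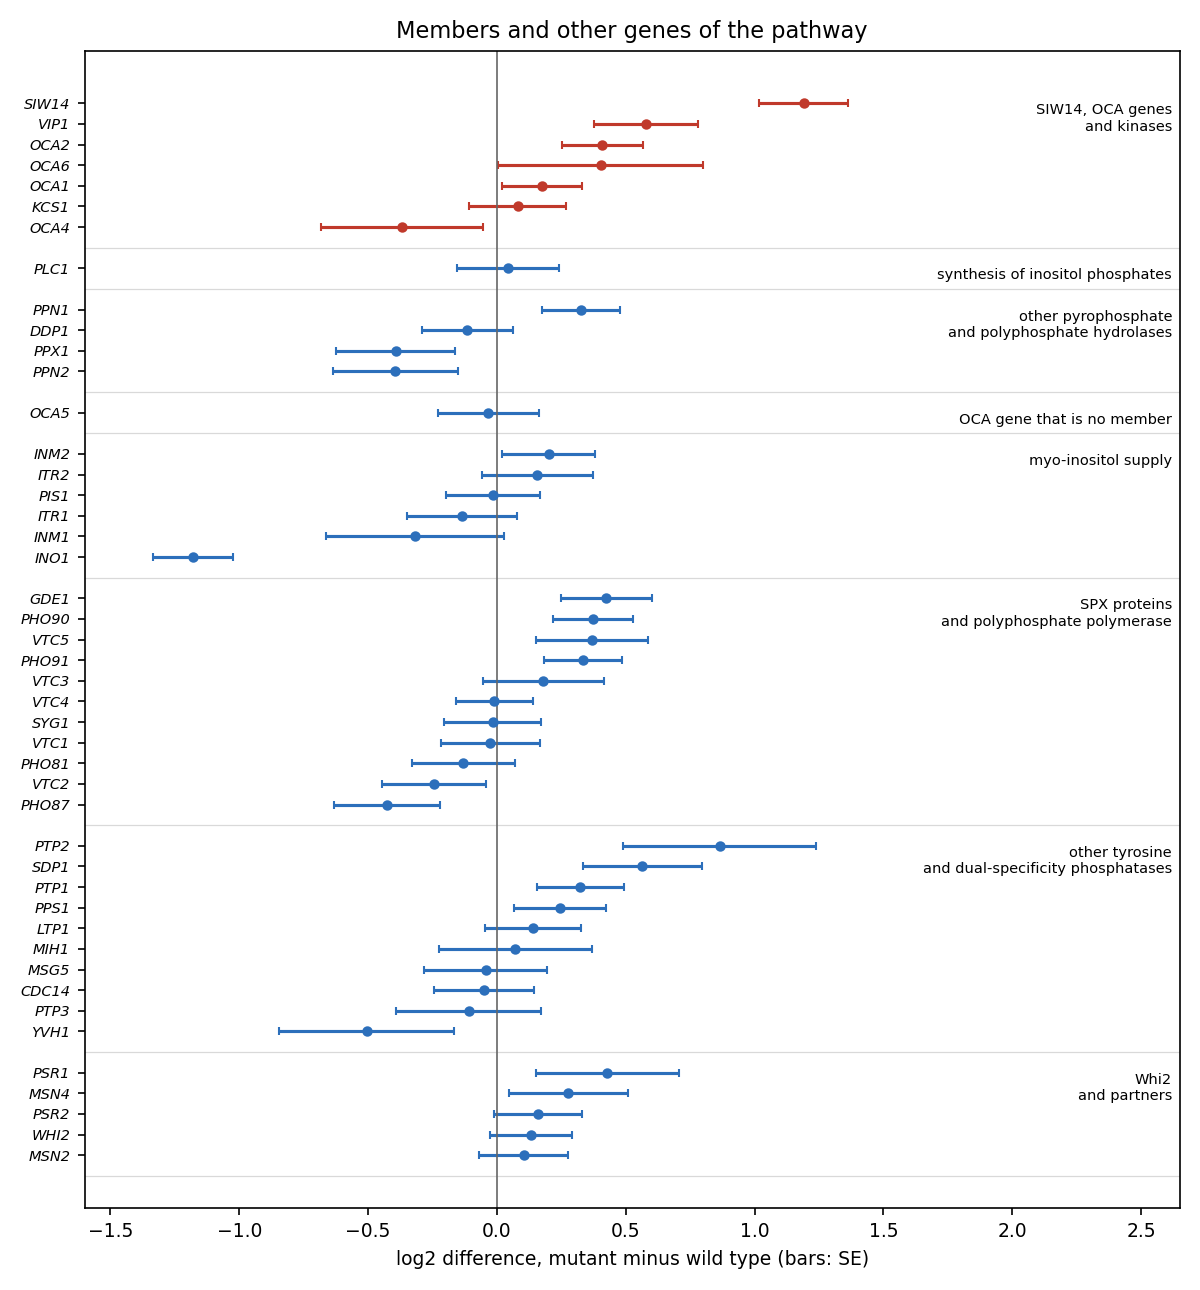
Log2 difference, mutant minus wild type (horizontal axis), of the 7 genes in red and of the 38 tested genes of the 7 pathway lists in blue, with bars for the SE of the fit over all genes (2 arrays per group). SIW14 at 1.19 and INO1 at -1.18 lie furthest out, and the remaining genes fall between -0.51 and 0.86.

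In the gene order of the RefSeq table, assembly R64, SIW14 is the direct neighbour of HHT2, which encodes histone H3 and is paired with the H4 gene HHF2. Their locus tags, YNL032W and YNL031C, place them on opposite strands and pointing at each other. This was looked at after the value of SIW14 was known, for the 5 protein-coding genes on each side of HHT2-HHF2 and of HHF1-HHT1, the second H3-H4 pair, on chromosome II. Around HHT2-HHF2, 6 other genes were tested, with differences from -0.14 for YNL035C to 0.30 for CRZ1 and a median of -0.03. KTR5, which flanks the pair on the side of HHF2, read 153 and 151 in the mutant cultures, against 149.5 and 129 in the wild-type cultures, a difference of 0.23 (SE 0.16).

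YNL033W and YNL034W, the genes beyond SIW14, are read on probe sets shared with other genes and near background. The probe set of YNL034W read 9.73 and 11.1 in the mutant cultures, against 4.7 and 3.9 in the wild-type cultures, and that of YNL033W read 5.54 and 6.05 in the mutant, against 4.0 and 4.7 in the wild type. The differences were 1.09 for the probe set of YNL034W and 0.40 for that of YNL033W. Which gene gives these signals cannot be told.

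At the second pair, the 6 tested genes differed by -0.13 to 0.29. FLR1 (YBR008C), a multidrug transporter gene and the direct neighbour of HHF1, lay just below the filter with a mean signal of 23.2. It read 26.3 and 37.5 in the mutant cultures, against 17.1 and 11.9 in the wild-type cultures. The groups of FLR1 did not overlap and its difference was 1.14, or 1.13 (SE 0.25) in a fit with no filter. IPP1, which flanks that pair on the side of HHT1, was at -0.13 (SE 0.26). SIW14 and FLR1, each a direct neighbour of an H3-H4 pair, were more than 2-fold higher in the mutant cultures, and KTR5 and IPP1 were not. The shared probe set of YNL034W, no direct neighbour, was 2.12-fold higher. SIW14 was known beforehand to differ, and the share of 0.437% at least 2-fold higher covers tested genes only, not FLR1. Nothing is read from this arrangement.

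The H3 genes themselves are read on probe sets shared by HHT1 and HHT2, which do not tell the copies apart. Probe set 8910_at read 2595 and 2739 in the mutant cultures, against 2219 and 4109 in the wild-type cultures, and 7369_s_at read 759 and 947 in the mutant, against 801 and 614 in the wild type. The labels do not say how the H3 genes were altered in either strain, and the part of gene position in the values of SIW14 and FLR1 was not tested.

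**Figure D5:**
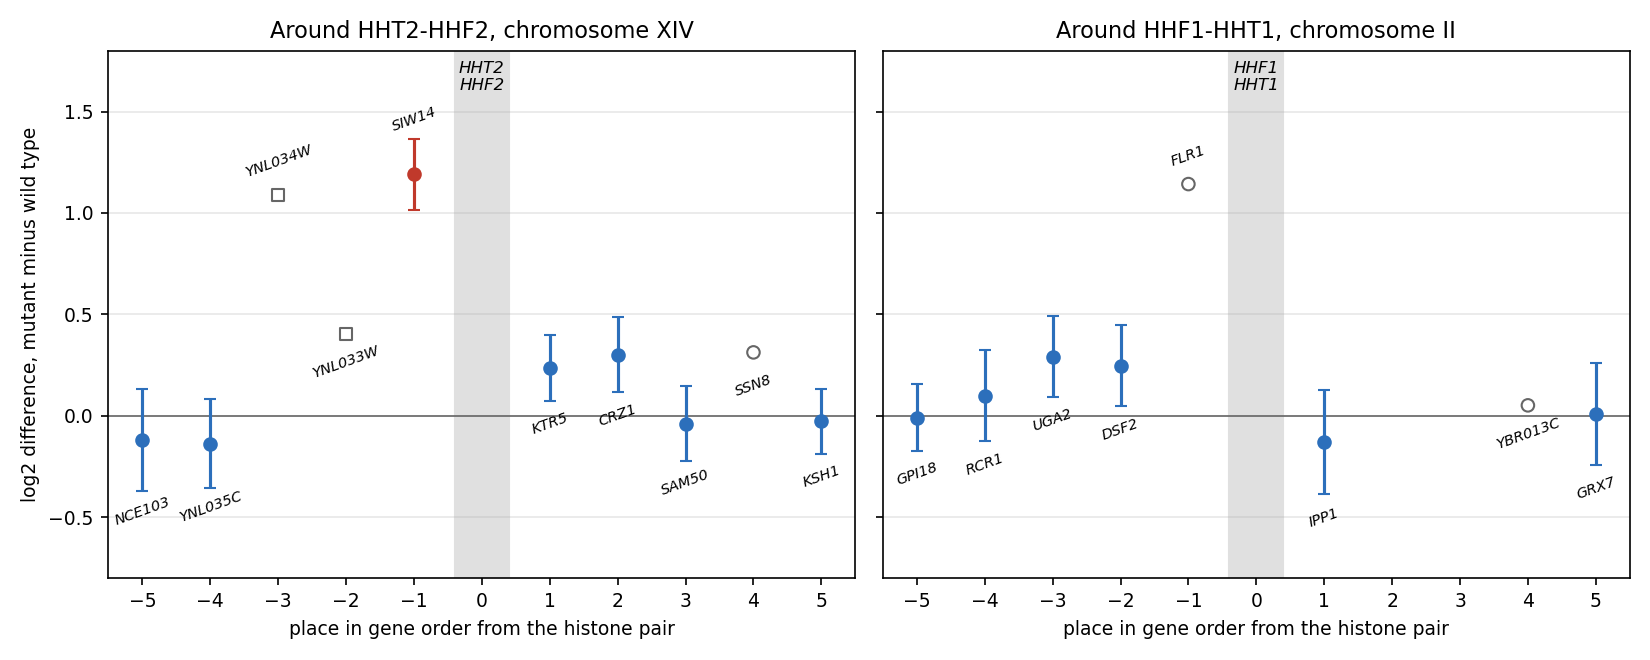
Log2 difference, mutant minus wild type (vertical axis), of genes by their place in gene order from HHT2-HHF2 (left) and HHF1-HHT1 (right), both in grey bands. Filled points with SE bars are tested genes (SIW14 in red), open circles genes below the filter, open squares probe sets shared with other genes, and 1 retrotransposon gene with several shared probe sets and 1 gene with no reading are not drawn. SIW14 at 1.19 and FLR1 at 1.14 stand next to the histone pairs, and the shared probe set of YNL034W, further from HHT2, lies at 1.09. The tested genes other than SIW14 lie between -0.14 and 0.30.

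The tested direct neighbours of the other members are given here, too few to read a rule from them. OCA2 is flanked by YNL058C, which was at 0.79 (SE 0.15) with 317 and 369 in the mutant cultures, against 230.3 and 197 in the wild-type cultures, and by POR1, the mitochondrial porin gene, at 0.03 (SE 0.26). OCA1 lies between MIC27 at -0.05 and RAS2 at -0.05, and VIP1 next to UTP21 at 0.02 (SE 0.16). KCS1, OCA4 and OCA6 each had 1 tested neighbour, DAD1 at -0.27 (SE 0.18), CDC50 at -0.34 (SE 0.19) and DOS2 at 0.01 (SE 0.23).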

How the data were processed

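The 7 genes, the lists and the tests were chosen with earlier results of these data known. Titles gave each sample's group and replicate number. Per the design text the replicates are cultures. The p-values set a difference against scatter between these arrays, which the fit takes in part from other genes. Each deposited value is the intensity of 1 probe set, not logged, from MAS5 per the submitters' processing notes. The sources used here do not give its version or scaling. Deposited signals on the wild-type arrays are multiples of 0.1, and those on the mutant arrays multiples of 0.0839 and 0.0960, 1 factor per array, which centring removes up to the pseudocount.

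Of 9335 probe sets, 6504 are paired with 1 gene by the platform annotation, and all 5656 genes matched the RefSeq table by gene ID. A pseudocount of 2, near the 10th percentile of all signals (2.4), was added before log2, which understates folds of dim genes. The dimmest 25% of probe sets by mean signal were left out, the brightest probe set stood for a gene, and each array was centred on its median over the 4576 tested genes. Linear models from limma 3.58.1 (R 4.3.3), moderated by eBayes with a trend over intensity at 2 residual and 5.63 prior degrees of freedom, gave two-sided p-values, adjusted by Benjamini-Hochberg with a threshold of 0.05. Differences and their SEs are mutant minus wild type. Precision is limited by having 2 arrays per group. On simulated data for this comparison, with 4576 genes of the real means and spreads, 29 of 50 genes changed by 1 (log2) and 46 of 50 changed by 2 were called, with 4 false calls in all. The same simulation changed 50 genes by 3 and 50 by 4, of which 50 and 49 were called. So many calls ease the Benjamini-Hochberg cut beyond that of the real data, where 2 genes passed. These rates can therefore overstate detection here.

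Named genes were the 7 examined genes, genes of the 7 lists with at least the highest and lowest of each, and the 5 profiles nearest to SIW14 and 3 nearest to KCS1 and VIP1. The neighbours of the histone pairs were added after the values had been seen. Alternatives covered normalization, pseudocount, filter, probe set choice, variance model, a replicate block and each array left out. The sources used here name no genome build for the array annotation, so coordinates are not printed. Summaries and figures were made in Python 3.11.15 (pandas 2.3.3, matplotlib 3.10.9).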

Additional observations from a re-analysis of the deposited data

How the results depend on the processing

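With 2 arrays per group, the number of genes past an adjusted p of 0.05 in limma, 2 over all genes, depended on the settings. It was 11 without centring, 9 with quantile normalization, 8 with cyclic loess, 7 with the lowest 50% left out, 9 with the mean of probe sets, 1 with no trend and 32 with the replicate block. With an array left out it ranged from 1 to 21, in fits with 1 residual degree of freedom, where the single array left in a group is assumed to scatter as the other group does. SIW14 passed, 1 of the 7 examined genes against 0, without centring and with the replicate block. With an array left out this count ranged from 0 to 1, SIW14 passing without mutant replicate 2. INO1 passed, 1 of the list genes against 0, without centring, with the mean of probe sets and with the replicate block, and that count ranged from 0 to 1 with an array left out. Without centring OCA1 was at 0.069 and OCA2 at 0.30. The other 66 of 68 differences of the examined genes under other settings moved by less than 1 SD between replicates, as did 577 of 595 for the other named genes. Both counts include the fits with no trend and with the replicate block. These change only the variance and leave every difference as it was, so they say nothing of its stability. Leaving out the centring lowered all differences by a shared amount. The SDs between replicates of OCA1 (0.036) and OCA2 (0.050) lie below that amount. The cause of the other shifts was not tested. OCA4 and OCA6 have no value with the lowest 50% left out. Replicate numbers are shared between the strains, but deviations of same-numbered arrays correlated at 0.04 over genes, so the numbers were not taken as pairs and the block changes the degrees of freedom without a known pairing. Signal over background limits OCA4, OCA6, FLR1 and the 4 dim probe sets of VIP1.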
